A study of Mus musculus with 10 samples.

Results

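The collagen genes are described here as a family of 39 genes read by 42 probes, among 16383 genes that the array names with 1 symbol. They were chosen by name: every symbol made of Col, a number, the letter a and a number. By the class of their protein, 11 were fibrillar, 8 belonged to basement membranes and 20 were of other classes. Liver RNA of 6 mice carrying 1 knockout allele of Tgfbr2 (Tgfbr2+/-), the gene of the type II TGF-beta receptor, was compared with that of 4 wild-type littermates. Both groups ate a chow diet, and the wild-type libraries are their controls. The titles call the Tgfbr2+/- mice males and give no sex for the wild-type mice. No age, strain, Cre driver or further allele is given for either group. Each library is 1 mouse on a 2-colour array, read against 1 common pool made of 6 wild-type livers, so a value is a log2 ratio over that pool and 0 means the level of the pool. Ratios carry no absolute level, so levels of different genes were not compared and the labelled tissue could not be checked against its markers. That the liver sample stands over the pool, and not the pool over the sample, is inferred from the order of the channels, and each sign would turn if it were the other way.

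Collagens are secreted proteins whose chains wind into triple helices. Type I, type III and type V chains form the fibrils of the portal tract and the liver capsule, and type I is the main collagen of scar tissue. Type IV chains form the sheet of basement membranes, with the products of Col15a1 and Col18a1 in the same zone, while type VI, type XII and type XIV bind to or lie between fibrils. In liver most fibrillar collagen is made by stellate cells and portal fibroblasts. TGF-beta, acting through the receptor that Tgfbr2 encodes, is a classical inducer of collagen synthesis in these cells.

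The start regions of 3 fibrillar members are shown because their genes behaved differently here: Col1a2 varied with Col1a1 across the libraries, Col3a1 did not follow them, and Col5a3 had the largest positive difference between the groups. Each line gives the 250 bases before the start of the gene from RefSeq (build GRCm38.p6), 5′ to 3′ on the strand of the gene. The capitals mark exact matches, on either strand, to CCAAT (the CCAAT box), GGGCGG (the GC box bound by Sp1), CAGAC (the Smad box) and TATAAA (the TATA box).
Col1a2, chr6:4505368-4505617, plus strand: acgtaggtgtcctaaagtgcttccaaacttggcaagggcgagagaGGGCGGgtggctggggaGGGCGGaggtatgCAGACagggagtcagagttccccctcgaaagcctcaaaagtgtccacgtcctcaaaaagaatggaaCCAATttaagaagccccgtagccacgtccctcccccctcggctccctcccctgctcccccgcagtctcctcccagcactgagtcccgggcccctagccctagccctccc
Col3a1, chr1:45311288-45311537, plus strand: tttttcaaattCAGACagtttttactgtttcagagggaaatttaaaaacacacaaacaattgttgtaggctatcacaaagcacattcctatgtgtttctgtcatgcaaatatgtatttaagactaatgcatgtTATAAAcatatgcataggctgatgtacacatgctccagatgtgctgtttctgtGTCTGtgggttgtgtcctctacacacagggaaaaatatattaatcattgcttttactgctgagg
Col5a3, chr9:20815068-20815317, minus strand: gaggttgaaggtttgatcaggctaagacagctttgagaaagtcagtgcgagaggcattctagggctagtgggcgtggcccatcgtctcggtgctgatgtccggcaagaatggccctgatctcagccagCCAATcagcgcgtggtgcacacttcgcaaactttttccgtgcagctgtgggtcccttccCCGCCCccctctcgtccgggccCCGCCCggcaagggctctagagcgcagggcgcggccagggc
The window of Col1a2 held 1 CCAAT box, 2 GC boxes and 1 Smad box, and that of Col5a3 held 1 CCAAT box and 2 GC boxes. The window of Col3a1 held 2 Smad boxes and 1 TATA box. The RefSeq table held 35 such windows for 32 of the 39 genes. A Smad box was in 15 of the 35 (42.9%) and in 42.2% of all 32851 windows, a CCAAT box in 13 (37.1%, against 33.9%), a TATA box in 5 (14.3%, against 12.4%) and a GC box in 21 (60.0%, against 32.7%). A match describes these letters and shows no binding.

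The libraries differed in how far they can be trusted, and these facts bear on the values below. Tgfbr2, as the mean of its 2 probes, differed in Tgfbr2+/- liver by -0.47 ± 0.12 (SE; limma adjusted p = 0.516), with -0.88 ± 0.26 on one probe and -0.070 ± 0.086 on the other. Its mean ratio was 0.049 in the library labelled Tgfbr2+/- replicate 4, inside the wild-type range of -0.07 to 0.37. It was -0.50 to -0.18 in the other 5, so on Tgfbr2 replicate 4 goes against its label. Over 10 macrophage markers the median of replicate 4 was 0.23, above the -0.27 to -0.12 of wild type and within the -0.012 to 0.28 of Tgfbr2+/- liver. Whether the label is right was not tested. Wild-type replicate 1 and Tgfbr2+/- replicate 5 correlated at r = -0.325 over all probes, so the direction of neither column is settled. As deposited, Tgfbr2 was at 0.23 and -0.49 in them, and the macrophage median at -0.22 and 0.25. Each of these values lay within the range of the other libraries of its group. Whether either column is turned was not tested, and the main differences are also given with either column turned in sign. Wild-type replicate 1 and Tgfbr2+/- replicate 2 also stood apart on collagen itself. The standard deviation over the collagen genes was 0.35 and 0.45 in them, against 0.19 to 0.29 in the other libraries. Wild-type replicate 1 was the highest library for 7 collagen genes and the lowest for 2 (8.78% and 11.6% of all genes). Tgfbr2+/- replicate 2 was the highest for 8 and the lowest for 12 (14.5% and 9.26% of all genes). Neither a slide nor a scan date is given, so no batch could be examined.

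No collagen gene passed the adjusted threshold between the groups. By limma 0 of 39 had an adjusted p under 0.05 (0% of all genes did), and 1 gene, Col5a3, had an unadjusted p under 0.05, which is 1 of 39 where 5.54% of all genes had one. Differences were small for most members: 32 of 39 lay within 0.1 of 0 on the log2 scale, and the median was 0.0094 against 0.0044 over all genes. Positive differences were found for 23 of 39 members, where 52.6% of all genes were positive. Precision varied among the members, with standard errors from 0.039 for Col6a1 to 0.60 for Col1a1. The same difference could thus be seen for one gene and not for another. Signal over background is unknown here, so a small standard error does not show that a change could be measured. Ratios were read from whole liver, where fewer cells of a type and less RNA per cell cannot be told apart.

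**Figure D1:**
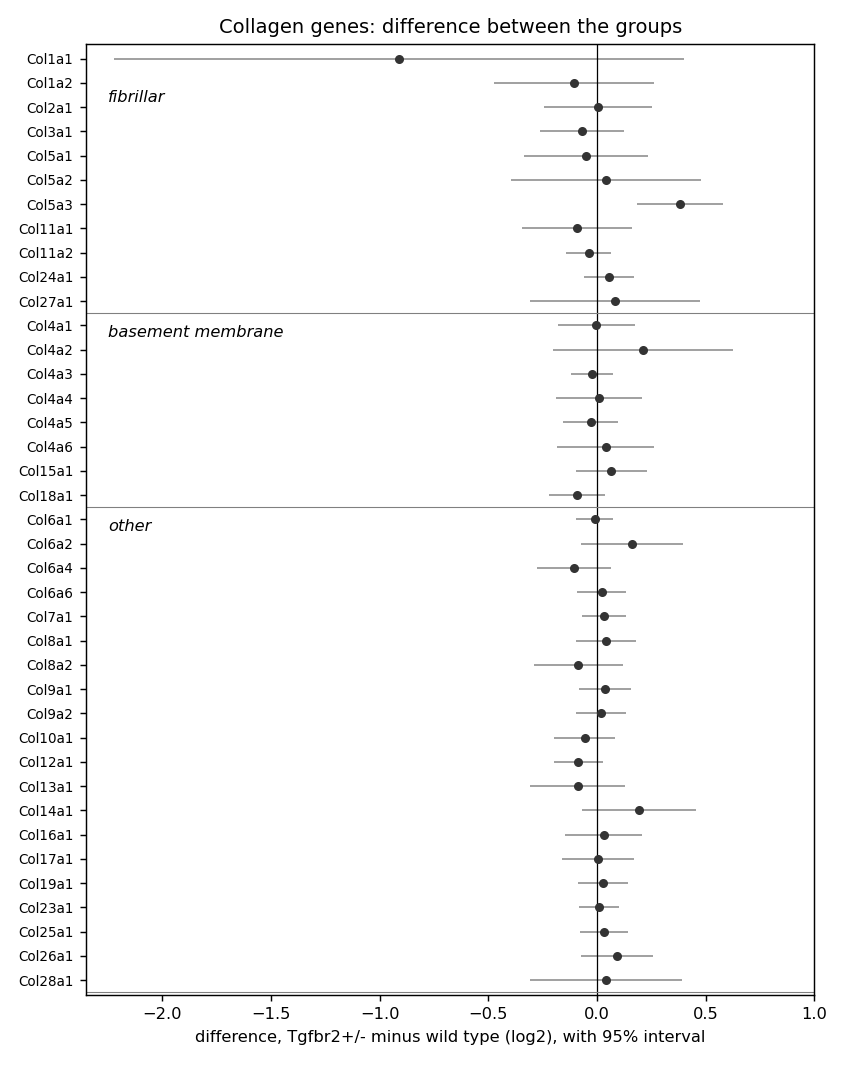
Difference between Tgfbr2+/- and wild-type liver (log2, x axis) for each of the 39 collagen genes (rows, by class), as a point with its 95% interval from limma. The interval of Col5a3 (0.18 to 0.58) is the one that leaves out 0, and that of Col1a1 (-2.22 to 0.40) is the widest.

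The fibrillar collagens varied most. Of their 11 genes 5 had positive differences, and the median difference was -0.039. Without wild-type replicate 1 this median was 0.038, with that column turned in sign it was 0.067, and without that library and Tgfbr2+/- replicates 4 and 5 it was 0.030. Col1a1, which encodes the more abundant chain of type I collagen (probe 10024413538), stood at 1.95 in wild-type replicate 1 and at -1.51, -0.81 and -1.12 in replicates 2 to 4. In the 6 Tgfbr2+/- libraries it ran from -2.34 to -0.58, with a median of -1.16. A single library was thus 3.86-fold above the pool and the other 9 were all below it, a pattern that 0.372% of all genes showed, and the 3 remaining wild-type libraries lay inside the Tgfbr2+/- range. The group means were -0.38 ± 1.57 (SD, n = 4) and -1.29 ± 0.61 (SD, n = 6). The difference was -0.91 ± 0.60 (SE; limma adjusted p = 0.919, exact permutation p = 0.252). Without wild-type replicate 1 it was -0.14 ± 0.33, without that library and Tgfbr2+/- replicates 4 and 5 it was -0.40 ± 0.30, and with that column turned in sign it was 0.062. The standard deviation of Col1a1 over the 10 libraries, 1.12, exceeded that of 99.9% of all genes, and without wild-type replicate 1 it was still 0.52, above 99.0% of them.

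Col1a2, the partner chain of type I collagen (probe 10024408814), had the same highest and lowest library as Col1a1, on a narrower scale. Its values were 0.63, -0.27, -0.20 and -0.25 in wild-type replicates 1 to 4, and -0.39 to 0.046 with a median of -0.11 in Tgfbr2+/- liver. Wild-type replicate 1 was again alone at the top, and the other 3 wild-type libraries lay inside the Tgfbr2+/- range. The difference was -0.10 ± 0.17 (limma adjusted p = 0.955), and 0.11 ± 0.094 without wild-type replicate 1. With that column turned in sign it was 0.21. The standard deviation of Col1a2 was 0.29 over the 10 libraries, above 94.8% of all genes, and 0.15 without wild-type replicate 1, above 70.8% of them. Col1a1 and Col1a2 moved together over the 10 libraries, with r = 0.96 (permutation p = 0.00036, 0.00144 after Benjamini-Hochberg adjustment over 8 pairs of collagen genes) and Spearman's rho = 0.81 (permutation p = 0.00718, adjusted 0.0285). Without the 2 libraries farthest from the median of Col1a1, wild-type replicate 1 and Tgfbr2+/- replicate 2, r was 0.69, so the strength of the relation rests partly on them. Without wild-type replicate 1 and Tgfbr2+/- replicates 4 and 5 together, r was 0.73 (permutation p = 0.0848, adjusted 0.339). With wild-type replicate 1 turned in sign it was 0.80. A change of 1 in the log2 ratio of Col1a1 went with 0.24 in that of Col1a2.

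**Figure D2:**
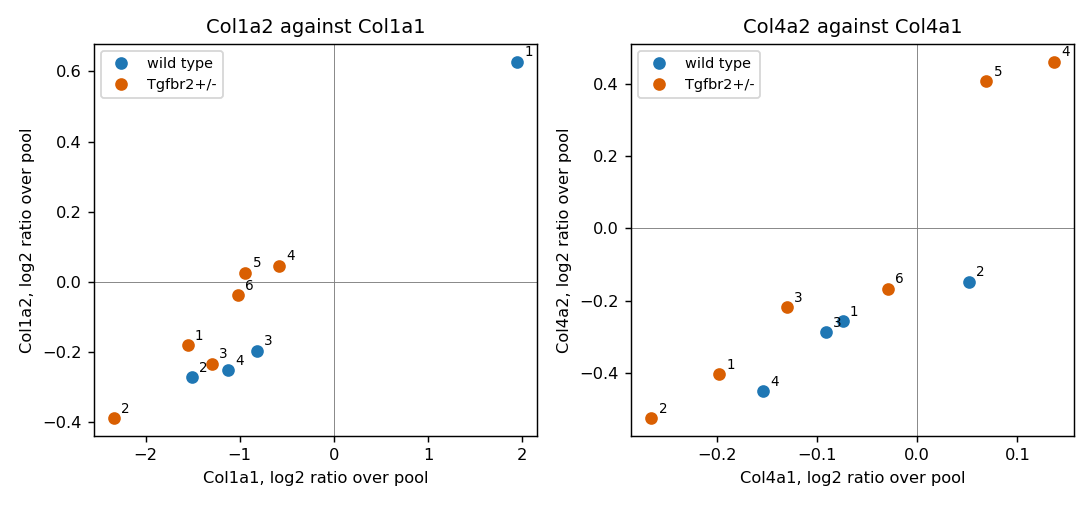
Log2 ratio over the pool of Col1a2 against Col1a1 (left) and of Col4a2 against Col4a1 (right), 1 point per library, numbered by replicate and coloured by genotype. Wild-type replicate 1 lies alone at the upper right for the type I chains, while Tgfbr2+/- replicates 4 and 5 do so for the type IV chains.

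Col3a1, the chain of type III collagen that shares fibrils with type I (probe 10024410698), did not follow Col1a1. It stood at 0.21, 0.33, 0.19 and -0.076 in the wild-type libraries and ran from -0.12 to 0.27, with a median of 0.088, in Tgfbr2+/- liver. The groups overlapped almost wholly, with a difference of -0.069 ± 0.087 (95% interval -0.26 to 0.12; limma adjusted p = 0.939). Its correlation with Col1a1 was r = 0.037 (permutation p = 0.916, adjusted 0.916; rho = -0.15, permutation p = 0.683, adjusted 0.683), and -0.40 without wild-type replicate 1 and Tgfbr2+/- replicate 2.

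The type V chains, which regulate the start and the width of type I fibrils, split. Col5a1 was at 0.27, -0.15, -0.10 and -0.022 in the wild-type libraries and at -0.47 to 0.24 in Tgfbr2+/- liver. Col5a2 was at 0.48, -0.14, -0.20 and -0.34 in the wild-type libraries and at -0.39 to 0.46 in Tgfbr2+/- liver. Both were highest in wild-type replicate 1 and lowest in Tgfbr2+/- replicate 2, as were Col1a1 and Col1a2. Their differences were -0.050 ± 0.13 and 0.042 ± 0.20 (limma adjusted p = 0.979 and 0.989). Turning the column of wild-type replicate 1 gave 0.082 and 0.28, and with Tgfbr2+/- replicate 5 turned they were -0.088 and -0.11. Between them r was 0.69 (permutation p = 0.0273, adjusted 0.0727) and rho 0.78 (permutation p = 0.0107, adjusted 0.0285), and r fell to 0.47 without wild-type replicate 1 and Tgfbr2+/- replicate 2. Without Tgfbr2+/- replicate 1 the adjusted permutation p of r was 0.0348 (r = 0.77).

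Col5a3, the third type V chain (probe 10024408154), was higher in Tgfbr2+/- liver by the unadjusted test and did not pass the adjusted one. Its values were -0.29, -0.23, -0.25 and -0.074 in wild type. In Tgfbr2+/- replicates 1 to 6 they were 0.30, 0.39, -0.024, 0.071, 0.29 and -0.0037. Every Tgfbr2+/- library lay above every wild-type one, and the groups failed to overlap for 1.09% of all genes, and in this direction for 0.732%. The means were -0.21 ± 0.09 (SD, n = 4) and 0.17 ± 0.18 (SD, n = 6). The difference was 0.38 ± 0.090, or 1.30-fold (limma p = 0.00140, adjusted p = 0.435; exact permutation p = 0.00952, where 210 splits allow no less than 0.00476). It ran from 0.34 to 0.42 with any 1 library left out. When the column of wild-type replicate 1 was turned in sign the difference was 0.24, no longer at an unadjusted limma p under 0.05, and when that of Tgfbr2+/- replicate 5 was turned it was 0.28 and still was. Col5a3 stayed the one collagen gene at an unadjusted p under 0.05 without wild-type replicate 1 (3.55% of all genes then had one) and without that library and Tgfbr2+/- replicates 4 and 5 (3.47% of all genes).

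**Figure D3:**
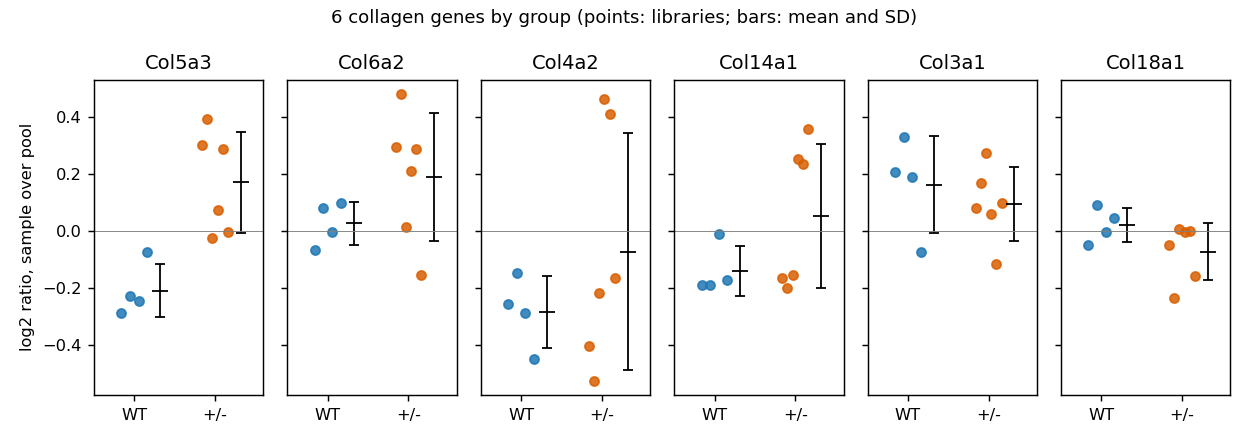
Log2 ratio over the pool of 6 collagen genes in each wild-type (left, 4 points) and Tgfbr2+/- library (right, 6 points), with the group mean and SD as a bar. The groups do not overlap for Col5a3 and do overlap for Col6a2, Col4a2, Col14a1, Col3a1 and Col18a1.

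The other fibrillar genes are known from cartilage and other tissues more than from liver. Col11a1 was at 0.32 in wild-type replicate 1 and between -0.32 and 0.19 in the other libraries, with a difference of -0.092 ± 0.12. Col27a1 ranged from -0.40 to 0.58, both in Tgfbr2+/- liver, with a difference of 0.084 ± 0.18. Col2a1, Col11a2 and Col24a1 differed by 0.0030, -0.039 and 0.054. In all, wild-type replicate 1 was the highest of the 10 libraries for 5 of the 11 fibrillar genes (Col1a1, Col1a2, Col5a1, Col5a2 and Col11a1), for 0 of the 8 basement membrane genes and for 2 of the 20 others, while it was the highest for 8.78% of all genes. The median fibrillar value was 0.27 in that library, -0.14 to -0.074 in the other wild-type libraries and -0.10 to 0.060 in Tgfbr2+/- liver. These counts were looked for after the values of Col1a1 had been seen.

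**Figure D4:**
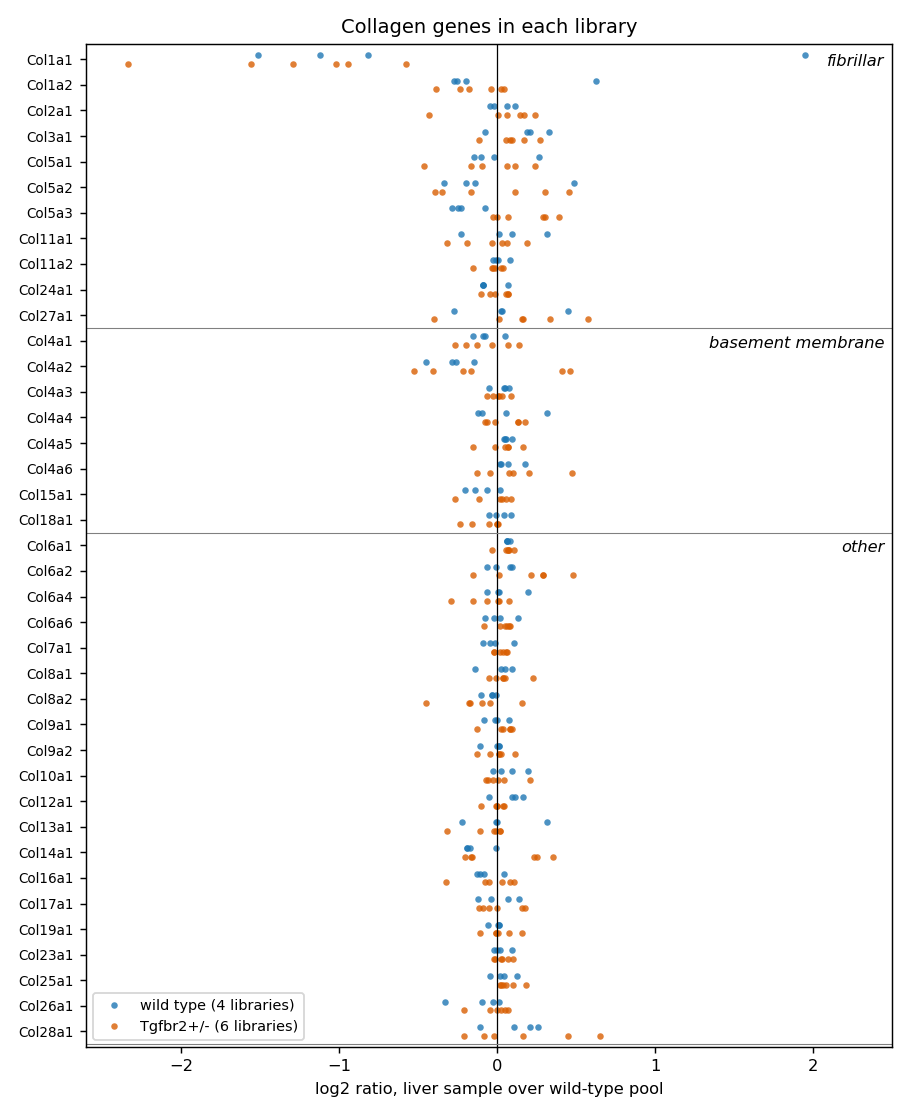
Log2 ratio over the pool (x axis) of each of the 39 collagen genes (rows, by class), with 1 point per library, wild type above and Tgfbr2+/- below within each row. Col1a1 spreads from -2.34 to 1.95, and Col6a1 stays between -0.030 and 0.11.

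Lox, Loxl1, 3 of 5 mesothelial markers and, among the portal fibroblast markers, Cd34 and Dpt were, like type I collagen, highest in wild-type replicate 1. These genes were chosen after their values had been seen. Lox and Loxl1, which encode enzymes that cross-link collagen, were at 0.89 and 0.32 there and at most at -0.069 and 0.10 in the other 9 libraries. Over the whole list of 29 collagen maturation genes, which holds both, wild-type replicate 1 was the highest library for 5, and its median was -0.0100 against -0.011 to 0.090 in the others. Of the 5 measured mesothelial markers, genes of the cell layer that covers the liver, 3 were highest there. Wt1 was at 0.99 against -1.06 to -0.16 in the others, Msln at 1.08 against -0.84 to -0.096, and Upk1b at 0.86 against -0.74 to 0.086. The remaining Gpm6a was at 0.0066, within the range of the others, and Lrrn4 was at -0.0028, the lowest of the 10 libraries. The median of these 5 was 0.86 in wild-type replicate 1, -0.56 to -0.36 in the other wild-type libraries and -0.74 to 0.0071 in Tgfbr2+/- liver. Over the whole list of 14 portal fibroblast and mesothelial markers, wild-type replicate 1 was highest for 5 and lowest for 2. It was highest for 8.78% and lowest for 11.6% of all genes. Among the 5, Cd34 was at 0.49 against -0.53 to 0.19 in the others, and Dpt at 0.33 against -0.27 to 0.15. The 2 were Lrrn4 and the portal fibroblast marker Mfap4, at -0.050 against 0.023 to 0.23 in the others. The median over 14 stellate cell markers was 0.00033 in wild-type replicate 1, -0.066 to 0.00017 in the other wild-type libraries and -0.040 to 0.12 in Tgfbr2+/- liver. That over 9 myofibroblast and smooth muscle markers was 0.076, above -0.17 to 0.036 in the other 9 libraries. The part of mesothelial or other cells in the type I values was not tested. 

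**Figure D5:**
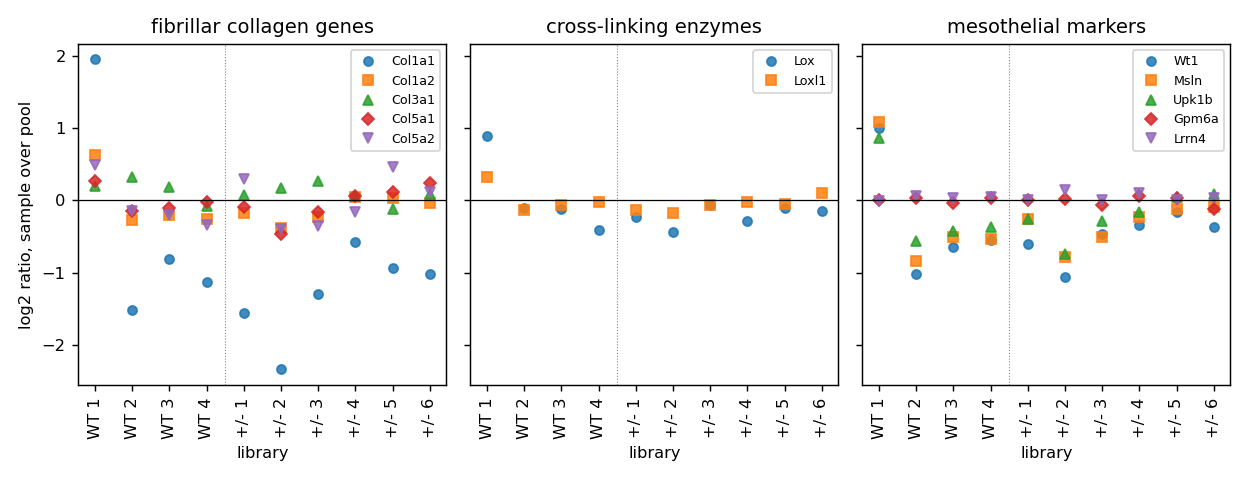
Log2 ratio over the pool (y axis) in each library (x axis, wild type then Tgfbr2+/-) for 5 fibrillar collagen genes, 2 cross-linking enzymes and 5 mesothelial markers. Wild-type replicate 1 is far above the rest for Col1a1, Lox, Wt1, Msln and Upk1b, and not for Col3a1, Gpm6a or Lrrn4.

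The basement membrane genes were centred on 0, with 4 of 8 differences positive and a median of 0.0034. Their widest member was Col4a2, a chain of the common type IV network (probe 10024398830). It was at -0.26, -0.15, -0.29 and -0.45 in wild type. In Tgfbr2+/- replicates 1 to 6 it was at -0.40, -0.53, -0.22, 0.46, 0.41 and -0.17. Replicates 4 and 5 alone lay above the pool. Replicates 1, 3 and 6 lay within the wild-type range, and replicate 2 lay below every wild-type library. The difference was 0.21 ± 0.19 (limma adjusted p = 0.932), and without wild-type replicate 1 and Tgfbr2+/- replicates 4 and 5 together it turned to -0.034. Without Tgfbr2+/- replicate 4 it was 0.10, and without replicate 5 it was 0.12. With replicate 5 or wild-type replicate 1 turned in sign it was 0.076 or 0.083.

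Col4a1, whose chain joins that of Col4a2 in the same helix (probe 10024394295), was at -0.075, 0.052, -0.091 and -0.15 in wild type and at -0.27 to 0.14, with a median of -0.080, in Tgfbr2+/- liver. The groups overlapped, with a difference of -0.0025 ± 0.081 (95% interval -0.18 to 0.18). The libraries ranked almost alike on both genes, with r = 0.89 (permutation p = 1e-05, the smallest the resamples can give; adjusted 8e-05) and rho = 0.95 (permutation p = 0.00012, adjusted 0.00096). Without Tgfbr2+/- replicates 2 and 4, the farthest from the median of Col4a1, r was 0.81. As deviations from the group means r was 0.95. The genes lie head to head on chromosome 8, on opposite strands, and their RefSeq starts are 21 bases apart. A change of 1 in Col4a1 went with 2.37 in Col4a2.

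The remaining type IV chains, found in basement membranes of kidney, lung and other organs, had small differences. Differences were -0.021 for Col4a3, 0.0094 for Col4a4, -0.029 for Col4a5 and 0.040 for Col4a6, each below its standard error. These genes also lie as neighbouring pairs, and the pairs were added after the values had been seen. Col4a3 with Col4a4 gave r = -0.55 (permutation p = 0.0999, adjusted 0.200; rho = -0.59, permutation p = 0.0766, adjusted 0.153) and Col4a5 with Col4a6 gave r = 0.51 (permutation p = 0.138, adjusted 0.220; rho = 0.45, permutation p = 0.193, adjusted 0.257). Without the 2 farthest libraries these were 0.012 and 0.13, so both rest on those libraries. Without Tgfbr2+/- replicate 2 alone they were -0.77 and 0.83 (adjusted permutation p = 0.0320 and 0.0133). The neighbours Col3a1 and Col5a2 gave r = -0.28 (permutation p = 0.428, adjusted 0.489; rho = -0.16, permutation p = 0.656, adjusted 0.683), and -0.28 without the 2 farthest.

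Col15a1 and Col18a1 encode collagens of the basement membrane zone, and Col18a1 is the source of endostatin. Col15a1 was at 0.019, -0.14, -0.065 and -0.21 in wild type and at -0.27 to 0.085 in Tgfbr2+/- liver, a difference of 0.066 ± 0.075. Col18a1 was at -0.051, 0.089, -0.0053 and 0.046 in wild type and at -0.23 to 0.0070 in Tgfbr2+/- liver, a difference of -0.093 ± 0.058 (95% interval -0.22 to 0.036; limma adjusted p = 0.919). It was the largest negative difference of its class, and 3 of 6 Tgfbr2+/- libraries lay within the wild-type range.

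Among the 20 other collagens 14 had positive differences, with a median of 0.024. Col6a1 and Col6a2 encode chains of one type VI helix and are neighbours on chromosome 10, yet their ratios behaved differently. Col6a1 was among the steadiest genes on the array, at 0.062 to 0.080 in wild type and -0.030 to 0.11 in Tgfbr2+/- liver (SD over 10 libraries 0.035, with 0.873% of genes steadier). Col6a2 was at -0.066, 0.078, -0.0050 and 0.097 in wild type, and at 0.29, 0.48, 0.012, 0.21, 0.29 and -0.15 in Tgfbr2+/- replicates 1 to 6. In 4 of those 6 it was above all wild-type libraries and in replicate 6 below them. The difference was 0.16 ± 0.11 (limma adjusted p = 0.919, exact permutation p = 0.200), and 0.23 without Tgfbr2+/- replicate 6 (limma adjusted p = 0.637), where its unadjusted p was under 0.05. It was 0.10 without Tgfbr2+/- replicate 2, 0.10 without wild-type replicate 1 and Tgfbr2+/- replicates 4 and 5 together, and 0.067 with Tgfbr2+/- replicate 5 turned in sign. Between Col6a1 and Col6a2 r was 0.31 (permutation p = 0.398, adjusted 0.489; rho = 0.49, permutation p = 0.155, adjusted 0.248), and 0.42 without Tgfbr2+/- replicates 3 and 4.

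Col14a1, a collagen on the surface of fibrils, had the largest positive difference of its class. It was at -0.19, -0.19, -0.010 and -0.17 in wild type, and at -0.17, -0.20, -0.16, 0.25, 0.23 and 0.36 in Tgfbr2+/- replicates 1 to 6. Replicates 4 to 6 stood above the pool and above wild type, and replicates 1 to 3 at the wild-type level. The difference was 0.19 ± 0.12 (limma adjusted p = 0.919). Without wild-type replicate 1 and Tgfbr2+/- replicates 4 and 5 it was 0.083, below the 0.17 of Col28a1 and the 0.10 of Col6a2 under the same choice. It was 0.099 with array weights, 0.12 after turning Tgfbr2+/- replicate 5 in sign and 0.0996 after turning wild-type replicate 1. The related Col12a1 differed by -0.086 ± 0.051, at 0.096, 0.16, 0.11 and -0.050 in wild type and -0.10 to 0.044 in Tgfbr2+/- liver. Its limma p fell below 0.05 only when wild-type replicate 4 was left out, among the alternatives run. Col6a4 had the largest negative difference among these 20 genes, -0.11 ± 0.077. Col28a1 was the most variable of its class, from -0.21 to 0.65, and its 2 probes differed by 0.061 ± 0.29 and 0.020 ± 0.051. For Col23a1, which has 3 probes, the differences were -0.0075, 0.042 and -0.0082, of unlike sign and each within its error. The remaining members of the class (Col6a6, Col7a1, Col8a1, Col8a2, Col9a1, Col9a2, Col10a1, Col13a1, Col16a1, Col17a1, Col19a1, Col25a1 and Col26a1) had differences from -0.089 for Col13a1 to 0.094 for Col26a1.

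Both groups were compared with the pool as well. By limma 0 of 39 collagen genes passed the adjusted threshold in Tgfbr2+/- liver (0.0122% of all genes did) and 0 of 39 in wild type (0% of all genes). At an unadjusted p under 0.05 there were 6 of 39 (15.4%) in Tgfbr2+/- liver, where 18.3% of all genes had one, and 3 of 39 (7.69%) in wild type, where 4.14% did. Both shares are small counts, and the spread of the pool is not in these tests. The titles do not say whether the pool holds any of the 4 wild-type livers, and the groups differ in size (6 and 4). The 3 in wild type were Col3a1, Col5a3 and Col6a1. The 6 in Tgfbr2+/- liver were Col1a1, Col5a3, Col6a1, Col6a2, Col8a2 and Col25a1. Of these, Col1a1 at -1.29 was the farthest from the pool (limma adjusted p = 0.185). On Col1a1, 3 of the 4 wild-type libraries also lay below the wild-type pool, at -1.51 to -0.81. On Col5a3 all 4 did, at -0.29 to -0.074. The Col5a3 mean was -0.21 in wild type and 0.17 in Tgfbr2+/- liver. Part of the Col5a3 difference is thus wild type lying below a wild-type pool.

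The other genes of the collagen pathway gave no adjusted call either, and the medians of their 5 lists lay between -0.011 and 0.038. Among 29 genes of chain modification, cleavage and cross-linking, 14 were positive, with 2 at an unadjusted p under 0.05 as higher and 1 as lower, where 2.97% and 2.57% of all genes were. They were Pcolce2, an enhancer of procollagen cleavage (0.58 ± 0.088; limma adjusted p = 0.120), Crtap, part of the prolyl 3-hydroxylation complex (0.15 ± 0.048), and the cross-linking enzyme Loxl2 (-0.15 ± 0.057). Pcolce2 ran from 0.14 to 0.57 in Tgfbr2+/- liver and from -0.41 to -0.085 in wild type, so the groups did not overlap. Among 19 genes of collagen breakdown 9 were positive and Ctsb (0.18 ± 0.081) had an unadjusted p under 0.05, while Mmp14 (-0.18 ± 0.099) and Timp3 (-0.16 ± 0.10) did not. Among 12 receptor genes 6 were positive, with the inhibitory leukocyte receptor Lair1 at 0.25 ± 0.063 (limma adjusted p = 0.526), the collagen-binding kinase Ddr1 at -0.15 ± 0.069 and Adgrg1 at -0.094 ± 0.092. Among 16 proteins that partner fibrils 7 were positive, with Postn at -0.32 ± 0.14, Bgn at 0.14 ± 0.075 and Prelp at 0.057 ± 0.036. Among 17 basement membrane partners 13 were positive, with 3 at an unadjusted limma p under 0.05 as higher and 1 as lower, where 2.97% and 2.57% of all genes were. The 3 of smallest p were Smoc1 at -0.28 ± 0.090 and the laminin chains Lama1 at 0.31 ± 0.11 and Lama3 at 0.25 ± 0.099. By the same test the receptor list had 1 higher and 1 lower, and the fibril partners 0 and 1.

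Marker lists of the cells that make or surround collagen had median differences near 0, apart from macrophages. Stellate cell markers had a median difference of 0.053 (11 of 14 positive), myofibroblast and smooth muscle markers -0.020 (0 of 9 positive), and portal fibroblast and mesothelial markers -0.012 (6 of 14 positive), and none of these had an unadjusted limma p under 0.05. Of these lists the genes with the smallest p were Ecm1 (-0.12), Cygb (0.19) and Lrat (0.15) for stellate cells, Cnn1 (-0.11), Myh11 (-0.13) and Acta2 (-0.090) for myofibroblasts, and Gli1 (-0.16), Dpt (-0.16) and Mfap4 (0.061) for the portal list. Endothelial (7 of 15), cholangiocyte (3 of 7), hepatocyte (5 of 7) and skeletal muscle, cartilage and fat markers (4 of 8) had medians between -0.0058 and 0.016. Among the 15 endothelial markers 1 had an unadjusted limma p under 0.05, where 5.54% of all genes had one. It was Clec4g, a lectin of sinusoidal endothelium (0.27 ± 0.077, limma adjusted p = 0.621). The groups did not overlap for 2 of the 15, where they failed to overlap for 1.09% of all genes. These were Clec4g, at -0.18 to 0.015 in wild type and 0.029 to 0.43 in Tgfbr2+/- liver, and the scavenger receptor gene Stab2, at 0.050 to 0.099 and -0.093 to 0.027 (difference -0.084 ± 0.039). Flt1 differed by -0.14. The genes with the smallest p were Cldn7 (0.13), Epcam (0.046) and Krt19 (-0.015) among cholangiocyte markers, Apoa1 (-0.14), Ttr (0.11) and Hnf4a (0.060) among hepatocyte markers, and Matn1 (0.12), Adipoq (-0.047) and Lep (0.078) in the last list. Of the 10 macrophage markers 9 were positive, with a median of 0.41, and 8 had an unadjusted limma p under 0.05 as higher, where 2.97% of all genes did, and 0 an adjusted one. The macrophage markers with the smallest p were Cd5l (0.67), Folr2 (0.61) and Vsig4 (0.48). Over the 10 markers the median level was 0.23 to 0.28 in 5 Tgfbr2+/- libraries, -0.012 in replicate 3 and -0.27 to -0.12 in wild type. Col5a3 and Pcolce2 were also lowest in Tgfbr2+/- replicate 3 within their group, at -0.024 and 0.14. Col5a3 was nearly as low in replicate 6, at -0.0037, the library where the macrophage median was highest, at 0.28. The part of macrophages in the values of Col5a3, Pcolce2 and Lair1 was not tested.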

How the data were processed

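Total RNA of 10 mouse livers (6 Tgfbr2+/-, 4 wild type) and of a wild-type pool was labelled, amplified and read on 2-colour arrays, per the labels' protocols. The values used are the log10 ratios that the authors deposited, 1 per probe and library. The log10 base is inferred from 8 values that lie exactly at 2 or -2, a limit of 100-fold, and no collagen value lay there. The scanner, background correction, normalization and any dye swap are not given in the sources used here. Sample over pool is taken as the likely direction, since the pool is the first channel (Cy3) and each liver the second (Cy5). No value was missing, and column medians on the log2 scale were 0.0043 to 0.016. Correlations between libraries over all probes ran from -0.325 to 0.519. No depth exists for arrays, and the number of libraries limits the precision.

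Ratios were multiplied by 3.32 to log2 and averaged over the probes of a symbol. Of 23438 probes 17726 had 1 symbol, 50 had several and 5662 had none in the platform annotation, and all 39 collagen genes matched a RefSeq entry by Entrez ID. RefSeq holds 44 symbols of this form, and the 5 without a probe here, Col6a3 among them, were not analysed here. Groups were compared over all 16383 genes with limma 3.58.1 in R 4.3.3 (lmFit and eBayes, two-sided, Benjamini-Hochberg over all genes, threshold 0.05, 95% intervals), without covariates. Single differences were also given an exact two-sided permutation test over 210 splits. Correlations over the 10 libraries used 100000 permutations (Python 3.11.15, scipy 1.17.1, pandas 2.3.3). The labels name the animals as littermates and separate samples. The fit was tested on simulated data. Replicate numbers 1 to 4 occur in both groups, and deviations from the group means correlated at 0.087, 0.092, 0.302 and 0.0072 between equal numbers. They were not taken as pairs in the main fit, and a replicate block was run as an alternative. Unequal numbers were not compared, and whether equal numbers shared a step of processing was not tested.

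Genes named were Tgfbr2, a set of liver collagens (types I, III, V, IV, VI, XIV, XV and XVIII), any other collagen at an unadjusted p under 0.05, those of largest difference in each direction and largest SD in each class, and the 3 of smallest p in each other list. Other collagens and the genes high in wild-type replicate 1 were named after their values had been seen. The members and lists were chosen with earlier results of these data known. Alternatives were array weights, column centring, quantile normalization, single probes, a replicate block, each library left out, either of 2 columns turned in sign, type IV chains alone, and, chosen after seeing the data, 3 doubted libraries (wild-type replicate 1, Tgfbr2+/- replicates 4 and 5) left out together. A change of sign was counted as a reversal where the difference exceeded its standard error.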

Additional observations from a re-analysis of the deposited data

Results flagged for a closer look

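In 12 of 84 groups of values examined, 1 library was set apart by a gap that took a large part of its group's range, and chance gives about 1 in 20. The limit was a share of 0.829 for 4 libraries and 0.625 for 6. This rule takes no account of the size of the gap, so a flagged gap can be small, and Col1a1 was not flagged. Wild-type replicate 1 was the library in 3 of the 12 groups. It stood at 0.627 for Col1a2, where the other 3 wild-type libraries lay between -0.27 and -0.20. It stood at 0.0797 for Col6a1, where the others lay between 0.062 and 0.065, and at 0.265 for the median of the fibrillar genes, where the others lay between -0.14 and -0.074.

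Within wild type, replicate 3 was alone at -0.00997 for Col14a1 and at -0.0578 for Col19a1. Replicate 2 was alone at -0.106 for Col9a2 and at 0.0701 for Col24a1. Within Tgfbr2+/- liver, replicate 4 was alone at 0.227 for Col8a1 and at -0.104 for Col12a1. Replicate 5 was alone at -0.130 for Col9a1 and at -0.1545 for Col11a2, and replicate 6 was alone at -0.429 for Col2a1.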

How the results depend on the processing

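No collagen gene passed the adjusted limma threshold under any alternative run, while 10 genes of the whole array did without Tgfbr2+/- replicate 3. The count of collagen genes at an unadjusted limma p under 0.05 was 1 to 2 with single libraries left out. It was 2 with array weights and with the replicate block (Col5a3 and Col6a2), and 0 with wild-type replicate 1 turned. The count over all genes moved likewise. It was 908 in the main fit, 1351 with array weights, 1518 with the block and 584 with wild-type replicate 1 turned. Without Tgfbr2+/- replicate 6 or wild-type replicate 4, where the collagen count was 2, it was 1181 or 1255. The block gave 0.39 for Col5a3 and 0.073 for Col14a1. It gave -0.0076 for the receptor median and -0.118 for the myofibroblast median, which was -0.100 with array weights. The differences of 15 named collagen genes were recomputed under the alternatives, giving 284 values, of which 26 had the other sign. In 24 of these the reported difference was within its standard error, and the other 2 were Col1a1 at 0.062 with wild-type replicate 1 turned and Col4a2 at -0.034 without the 3 doubted libraries. Without those 3 the median of the other collagens was 0.0121 and that of breakdown genes 0.0327, and r of Col1a1 with Col1a2 was 0.729. With Tgfbr2+/- replicate 5 turned, the medians of basement membrane partners and macrophage markers were -0.0013 and 0.313. With wild-type replicate 1 turned they were 0.0655 and 0.273, and that of fibril partners was 0.0257. With single libraries left out, medians ran from 0.0090 to 0.0307 for the other collagens, -0.0246 to 0.0157 for breakdown, -0.0172 to 0.0183 for receptors, -0.0209 to 0.0185 for fibril partners, 0.0260 to 0.0652 for basement membrane partners and -0.0667 to 0.0277 for portal fibroblast and mesothelial markers, and r of Col5a1 with Col5a2 from 0.580 to 0.771. The cause of these shifts was not tested. The log base, the direction of the ratio, any dye swap and the signal over background are unknown here, and signal over background sets which ratios can be measured.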
